A study of Mus musculus with 18 samples.

Results

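The 10 genes described here are BCL2 family regulators of cell survival: Bcl2, Bcl2l1, Mcl1, Bcl2l11, Bad, Bbc3, Bid, Bax, Bak1 and Bnip3l. They were taken by name from a mouse count table of 21967 genes. Each was followed through 18 RNA-seq libraries in 6 groups, which were CFU-E and PreCFU-E of mice of 3 Scf genotypes, with 3 mice per genotype. PreCFU-E and CFU-E are successive erythroid progenitors, and both were sorted from c-Kit-enriched bone marrow of each of the 9 mice. Scf, listed as Kitl, encodes stem cell factor, the ligand of the receptor KIT. Lepr-Cre mice were Scf KO/FL;Lepr-Cre, with a null copy, a floxed copy and Cre expressed from the leptin receptor locus, which is active in perivascular stromal cells of the marrow. KO/FL mice had the null and the floxed copy without Cre, and FL/FL mice had floxed copies alone. All 3 genotypes thus carried floxed Scf, and a Cre-positive group with intact Scf was not analysed here. The labels give no ages. In each genotype the mice with the letters A and C were male and those with the letter B were female. Leaving out a B library thus also removes the only female of its group, and a block by letter also separates the sexes.

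Proteins of the BCL2 family set whether the outer membrane of the mitochondrion is permeabilised, the committing step of intrinsic apoptosis. BCL2, BCL-XL (encoded by Bcl2l1) and MCL1 hold the pore-forming effectors BAX and BAK (encoded by Bak1) in check, and BH3-only proteins such as BIM (encoded by Bcl2l11), PUMA (encoded by Bbc3), BAD and BID relieve that restraint or activate the effectors. Erythroid precursors depend on erythropoietin for survival, BCL-XL is required in maturing erythroblasts, and BNIP3L, also called NIX, is needed for the removal of mitochondria from reticulocytes. Much of the family is also controlled through phosphorylation and protein turnover, which mRNA does not show.

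The libraries held 3541066 to 9389122 counted reads with 10782 to 13536 genes detected. The CFU-E library of Lepr-Cre B had the fewest genes detected and stood apart on the second principal component of log2 CPM, at -42.4 against -19.6 and -17.4 for the other CFU-E libraries of Lepr-Cre mice. CPM are read counts scaled by TMM to a common library size over the 18 libraries. Of the 7 early progenitor markers, 5 to 7 had counts in each group. Their summed level was higher in PreCFU-E than in CFU-E within every genotype. Across genotypes, Lepr-Cre PreCFU-E, at 1482 to 1674 CPM, overlapped CFU-E of KO/FL (1276 to 1544 CPM) and FL/FL mice (1418 to 1669 CPM). Kit and Gata2 were lower in CFU-E of each genotype. Gfi1b went the other way, averaging 202, 243 and 236 CPM in CFU-E of Lepr-Cre, KO/FL and FL/FL mice. In PreCFU-E it averaged 149, 167 and 179 CPM in the same order. The 13 later erythroid markers summed to 2880 to 3231 CPM in CFU-E and 1757 to 2241 CPM in PreCFU-E. Kitl had 0 counts in 16 libraries and at most 1 count in the others, so these progenitors carry no check of the stromal genotype. In bulk RNA, fewer cells of a type and less RNA per cell cannot be told apart.

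Of the members called between the cell types, Bcl2, Bcl2l11 and Bcl2l1 had the largest log2 changes, and the 250 bases before their start sites are given so that their sequence context can be set beside the levels. The sequences are from RefSeq (GRCm38.p6), read 5′ to 3′ on the strand of the gene, and lie at chr1:106714291-106714540 on the minus strand for Bcl2, chr2:128125788-128126037 on the plus strand for Bcl2l11 and chr2:152831729-152831978 on the minus strand for Bcl2l1. Capitals mark every match, on either strand, to 5 searched motifs.
Bcl2: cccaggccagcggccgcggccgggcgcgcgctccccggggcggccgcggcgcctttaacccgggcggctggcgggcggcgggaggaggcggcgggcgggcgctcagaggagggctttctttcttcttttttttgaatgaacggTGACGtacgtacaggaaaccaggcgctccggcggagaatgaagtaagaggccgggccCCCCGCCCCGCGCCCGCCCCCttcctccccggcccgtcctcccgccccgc
Bcl2l11: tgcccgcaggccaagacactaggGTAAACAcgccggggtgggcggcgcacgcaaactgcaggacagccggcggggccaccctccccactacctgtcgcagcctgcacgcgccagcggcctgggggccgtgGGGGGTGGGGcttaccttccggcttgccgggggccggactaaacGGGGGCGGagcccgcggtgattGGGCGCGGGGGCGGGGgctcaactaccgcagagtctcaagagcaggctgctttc
Bcl2l1: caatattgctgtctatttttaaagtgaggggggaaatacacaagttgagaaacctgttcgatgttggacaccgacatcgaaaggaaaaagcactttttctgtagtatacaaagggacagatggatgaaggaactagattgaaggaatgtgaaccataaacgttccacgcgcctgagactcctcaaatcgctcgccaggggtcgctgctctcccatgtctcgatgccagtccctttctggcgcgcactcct

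The motifs were GATAA for GATA factors, TTCNNNGAA for STAT5, GTAAACA for forkhead (FOXO) factors, CCNCNCCC for KLF factors and TGACG, a CRE half-site. The Bcl2 window held 3 overlapping CCNCNCCC matches between -50 and -30 from the start site and a TGACG at -107 to -103. The Bcl2l11 window held GTAAACA at -227 to -221 and 6 matches to CCNCNCCC, some of them overlapping, between -120 and -39. The Bcl2l1 window held no match, which says only that these letters are not in these 250 bases, and the RefSeq table lists 3 starts for this gene and 2 for Bcl2l11. Of 32851 promoter windows of the same length, 3.17% held GTAAACA, 45.9% CCNCNCCC, 17.8% TGACG, 22.6% GATAA and 7.02% TTCNNNGAA. A match is a description of the sequence and not evidence of binding.

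Levels of different genes were compared per length, as CPM per kb of annotated exon, a level. Averaged over the 18 libraries, Mcl1 was highest with 58.0, followed by the effector Bak1 with 39.1, Bnip3l with 20.5, Bid with 17.7 and the effector Bax with 15.2. Bad with 8.11, Bcl2l11 with 5.21, Bcl2l1 with 2.82, Bbc3 with 1.53 and Bcl2 with 1.44 CPM per kb followed. Bnip3l, Bid and Bax overlapped one another over libraries, as did Bcl2l1, Bbc3 and Bcl2. Bcl2 ranked last in CFU-E, where its median lay below that of each other member.

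**Figure D1:**
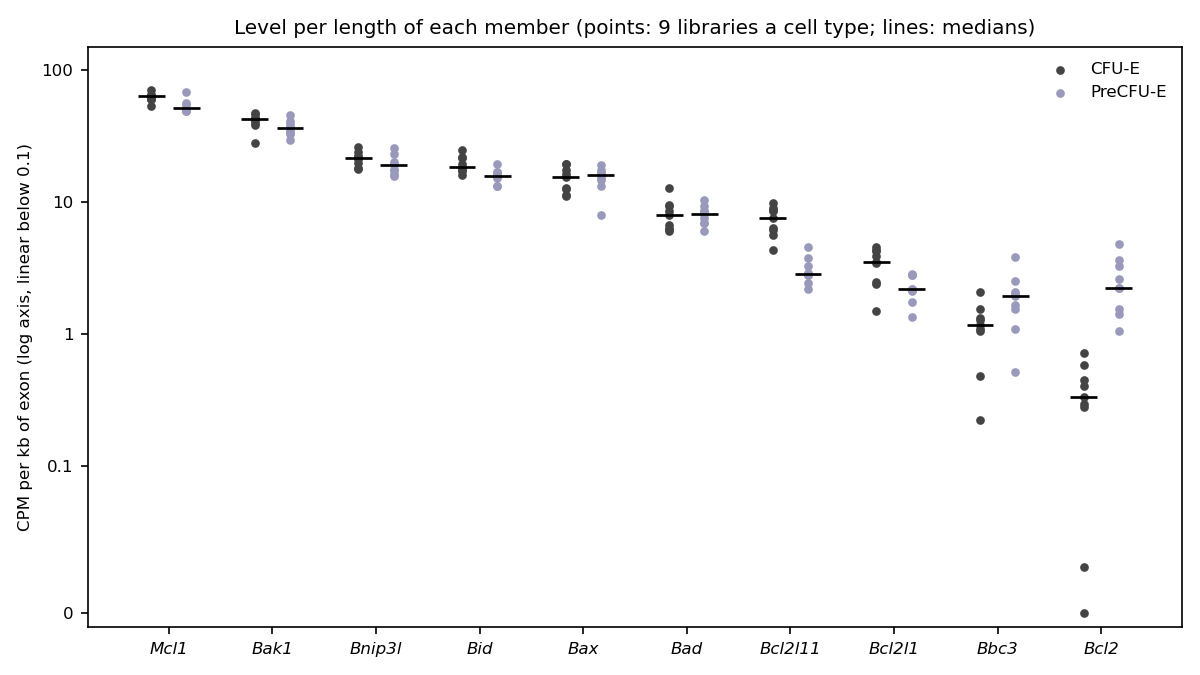
Level of each member as CPM per kb of exon on a log axis (linear below 0.1), with 1 point for each of 9 libraries of CFU-E (left, dark) and PreCFU-E (right, light) and lines at the medians. Mcl1 and Bak1 lie highest, and Bcl2 in CFU-E lies lowest, with 1 library at 0.

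Among the 3 pro-survival members, Mcl1 made up most of the message. Its share of their summed CPM per kb was 92.3% to 97.7% in CFU-E and 89.9% to 95.4% in PreCFU-E. The Bcl2 share averaged 0.492% ± 0.437 in Lepr-Cre, 0.574% ± 0.520 in KO/FL and 0.495% ± 0.0776 in FL/FL CFU-E (SD, n = 3 each). In PreCFU-E it averaged 2.30% ± 0.719 in Lepr-Cre, 5.37% ± 2.17 in KO/FL and 5.47% ± 0.764 in FL/FL mice (SD, n = 3 each). The 3 Lepr-Cre PreCFU-E libraries, at 1.48% to 2.77%, lay below the 6 of the other genotypes, at 4.11% to 7.88%. These shares are descriptions of mRNA and were not tested.

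Bcl2, the founding survival gene of the family (ENSMUSG00000057329.7, chr1:106538178-106714274, minus strand, GRCm38), fell in CFU-E of FL/FL and of KO/FL mice. In Lepr-Cre mice A, B and C, CFU-E had 5.31, 0 and 4.09 CPM and PreCFU-E had 13.01, 9.63 and 14.3 CPM. In KO/FL mice, CFU-E had 3.72, 6.55 and 0.287 CPM and PreCFU-E had 20.4, 44.3 and 20.4 CPM. In FL/FL mice, CFU-E had 3.06, 2.70 and 2.59 CPM and PreCFU-E had 33.2, 30.1 and 24.01 CPM. All 9 CFU-E libraries lay below all 9 PreCFU-E libraries, with 0 to 58 reads in CFU-E and 74 to 322 in PreCFU-E. A library at 0 counts allows up to 3 counts, which is 0.320 to 0.847 CPM at the depths of these libraries.

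Each SE given with an edgeR log2 fold change was calculated back from the F statistic of the test. The log2 fold change of Bcl2 in CFU-E against PreCFU-E was -3.39 ± 0.81 (SE) in FL/FL mice, with an adjusted p of 0.00920 by edgeR's quasi-likelihood test, a call that held with each library left out. In KO/FL mice it was -2.98 ± 0.78, with an adjusted p of 0.0197. The KO/FL call was lost without KO/FL PreCFU-E B (adjusted p = 0.0850) and without KO/FL CFU-E A (0.0741), and with only the 6 KO/FL libraries in the fit (0.0630). In Lepr-Cre mice it was -1.93 ± 0.79, with an adjusted p of 0.185, so that the difference did not pass there although each of the 3 mice was lower in CFU-E. Without the CFU-E library of Lepr-Cre B the value was -1.38, with an adjusted p of 0.209. Bcl2 passed in Lepr-Cre mice under 1 setting, limma on log2(RPKM + 1), with an adjusted p of 0.04997. The difference between Lepr-Cre and FL/FL mice in this change was 1.46 ± 1.11 and did not pass (adjusted p = 0.850).

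PreCFU-E of Lepr-Cre mice had less Bcl2 than those of either other genotype. Against FL/FL mice the log2 fold change was -1.24 ± 0.29 (SE), with an adjusted p of 0.00981 by edgeR. The groups did not overlap, with the 3 Lepr-Cre libraries at 14.3 CPM or less and the 3 FL/FL libraries at 24.01 CPM or more. Against KO/FL mice it was -1.22 ± 0.29 (adjusted p = 0.0231), again with no overlap. KO/FL and FL/FL mice differed by -0.02 ± 0.28, and their PreCFU-E overlapped. The 2 Lepr-Cre comparisons share the Lepr-Cre libraries and are not independent.

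Leaving out Lepr-Cre B ended the call against FL/FL mice (-1.10, adjusted p = 0.0597). Against KO/FL mice the call was lost without KO/FL B, the library with the highest Bcl2 (-0.73, edgeR adjusted p = 0.305). It was also lost without Lepr-Cre A (0.0751) and without Lepr-Cre B (0.135). The B libraries came from the females, so library and sex cannot be told apart here. Both calls were also lost when all 18 libraries shared 1 estimate of the spread, with adjusted p of 0.394 and 0.531, and with limma on the authors' RPKM. In CFU-E, where Bcl2 had few reads, the log2 fold change was 0.20 ± 0.99 for Lepr-Cre against FL/FL mice and -0.16 ± 0.98 against KO/FL mice, errors too wide to show a change of the size seen in PreCFU-E.

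The sum of early progenitor markers was lower in the same libraries as Bcl2. The summed level of the 7 genes Kit, Gata2, Myb, Cd34, Flt3, Meis1 and Gfi1b was 1482 to 1674 CPM in Lepr-Cre, 2578 to 3135 CPM in KO/FL and 3017 to 3387 CPM in FL/FL PreCFU-E, with Cd34 at 0 in the Lepr-Cre libraries. Myb and Kit made up most of that sum, with Myb at a mean of 942 CPM in Lepr-Cre, 1751 CPM in KO/FL and 2057 CPM in FL/FL PreCFU-E. The 13 later erythroid markers summed to 2162 to 2241 CPM in Lepr-Cre, 1822 to 1867 CPM in KO/FL and 1757 to 2062 CPM in FL/FL PreCFU-E, so that the Lepr-Cre libraries lay above the others. All 13 had counts in Lepr-Cre mice and 11 in each other genotype, with Hbb-bs at 0 in both, Alas2 at 0 in KO/FL and Slc4a1 at 0 in FL/FL mice. The part of these markers in the Bcl2 difference was not tested. Kit, which encodes the SCF receptor, averaged 436 ± 54.8 CPM in Lepr-Cre, 714 ± 96.3 CPM in KO/FL and 807 ± 62.0 CPM in FL/FL PreCFU-E (SD, n = 3 each), and was lower in Lepr-Cre PreCFU-E against FL/FL (edgeR adjusted p = 4.59e-05) and KO/FL mice (0.00129). B cell markers, 3 to 4 of 7 with counts, summed to 0.257 to 1.92 CPM in Lepr-Cre, 0.553 to 2.38 CPM in KO/FL and 0.207 to 4.88 CPM in FL/FL PreCFU-E. T and NK cell markers, 3 of 7 with counts, summed to 1.57 to 5.07 CPM in Lepr-Cre, 1.10 to 5.64 CPM in KO/FL and 2.81 to 7.31 CPM in FL/FL PreCFU-E, with Cd3e, Cd3g, Cd8a and Klrb1c at 0 in all 3 groups. An unstranded count could also hold reads of the antisense gene D630008O14Rik, which overlaps Bcl2, and the sources used here do not state the strand setting of the counting.

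Bcl2l1, which encodes BCL-XL (ENSMUSG00000007659.18, chr2:152780668-152831728, minus strand), was higher in CFU-E of KO/FL mice. CFU-E had 17.8, 19.995 and 11.04 CPM and PreCFU-E had 9.67, 6.19 and 8.02 CPM in KO/FL mice A, B and C. In Lepr-Cre mice, CFU-E had 19.7, 6.91 and 16.2 CPM and PreCFU-E had 13.1, 10.1 and 12.97 CPM. In FL/FL mice, CFU-E had 15.8, 20.9 and 11.4 CPM and PreCFU-E had 9.92, 12.9 and 10.1 CPM. The groups were separate in KO/FL mice and overlapped in the other genotypes.

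The log2 fold change of Bcl2l1 in CFU-E against PreCFU-E was 1.05 ± 0.35 (SE) in KO/FL mice, with an edgeR adjusted p of 0.0419. It was 0.25 ± 0.34 in Lepr-Cre mice (adjusted p = 0.761) and 0.55 ± 0.34 in FL/FL mice (adjusted p = 0.291). The KO/FL call was lost without KO/FL PreCFU-E B (0.188) or C (0.0907) and without KO/FL CFU-E A (0.118) or B (0.161), and with limma on RPKM. No genotype comparison of Bcl2l1 passed. In PreCFU-E the Lepr-Cre libraries, at 10.1 to 13.1 CPM, lay above the KO/FL libraries, at 6.19 to 9.67 CPM, with a log2 fold change of 0.61 ± 0.34 (adjusted p = 0.447).

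Mcl1, whose short-lived protein is needed for survival of blood stem and progenitor cells (ENSMUSG00000038612.16, chr3:95658788-95663176, plus strand), was the most abundant and steadiest member. In Lepr-Cre mice A, B and C, CFU-E had 221, 217 and 224 CPM and PreCFU-E had 168, 233 and 177 CPM. In KO/FL mice, CFU-E had 218, 208 and 240.1 CPM and PreCFU-E had 170, 189 and 171 CPM. In FL/FL mice, CFU-E had 182, 206 and 206 CPM and PreCFU-E had 176, 193 and 169 CPM. The highest of 18 libraries was 1.43 times the lowest. Mcl1 rose in CFU-E of KO/FL mice by 0.33 ± 0.11 on the log2 scale (SE, edgeR adjusted p = 0.0448), the groups being separate. That call lay at the threshold and was lost on leaving out any 1 of the 6 KO/FL libraries (0.0525 to 0.221), with DESeq2 (0.0536) or its size factors (0.0585), with limma on RPKM and with only the KO/FL libraries in the fit (0.0619). The change was 0.20 ± 0.11 in Lepr-Cre mice and 0.14 ± 0.11 in FL/FL mice, neither passing.

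Bcl2l11, which encodes the BH3-only protein BIM (ENSMUSG00000027381.16, chr2:128126038-128162547, plus strand), was the member that passed between the cell types in all 3 genotypes, and it was higher in CFU-E. In Lepr-Cre mice A, B and C, CFU-E had 51.3, 45.0 and 34.9 CPM and PreCFU-E had 22.5, 22.9 and 22.5 CPM. In KO/FL mice, CFU-E had 70.2, 68.3 and 49.5 CPM and PreCFU-E had 23.5, 36.8 and 26.6 CPM. In FL/FL mice, CFU-E had 72.3, 79.0 and 60.7 CPM and PreCFU-E had 30.5, 17.6 and 19.7 CPM. Within each genotype the groups did not overlap, and CFU-E was higher in each of the 9 mice.

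The log2 fold change of Bcl2l11 in CFU-E against PreCFU-E was 0.95 ± 0.21 in Lepr-Cre mice (SE, edgeR adjusted p = 0.00439), 1.10 ± 0.21 in KO/FL mice (adjusted p = 0.000402) and 1.64 ± 0.22 in FL/FL mice (adjusted p = 1.23e-06). These 3 calls held with each library left out and under each other setting run. Over the 18 libraries Bcl2l11 was at most 79.0 CPM, and the library with the highest level was 4.49 times the lowest.

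CFU-E of Lepr-Cre mice had less Bcl2l11 than CFU-E of FL/FL mice, by -0.67 ± 0.18 on the log2 scale (SE, edgeR adjusted p = 0.0313). The Lepr-Cre libraries lay at 34.9 to 51.3 CPM and the FL/FL libraries at 60.7 to 79.0 CPM, with no overlap. Against KO/FL CFU-E the difference was -0.51 ± 0.18 and did not pass (adjusted p = 0.222), the libraries overlapping. The call against FL/FL mice was lost without Lepr-Cre C (0.112), without Lepr-Cre B (0.0667) and without FL/FL A (0.105) or B (0.159), and with limma on RPKM. In PreCFU-E the same contrast was below 0.01 in size, with an SE of 0.24. The difference of the contrast between the cell types was -0.68 ± 0.30 and did not pass (edgeR adjusted p = 0.533), so the data do not show that the genotype difference depends on cell type.

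The sum of early progenitor markers was also lower in Lepr-Cre CFU-E, with summed levels of 787 to 1092 CPM in Lepr-Cre, 1276 to 1544 CPM in KO/FL and 1418 to 1669 CPM in FL/FL libraries, 5 to 6 of 7 genes having counts. Myb, Kit, Gfi1b and Gata2 had lower means in Lepr-Cre CFU-E than in both other genotypes, whereas Meis1 averaged 2.93 CPM in Lepr-Cre, 2.23 CPM in KO/FL and 1.39 CPM in FL/FL CFU-E. Flt3 averaged 0.410 CPM in the Lepr-Cre libraries and was at 0 in the KO/FL and FL/FL libraries, and Cd34 was at 0 in the Lepr-Cre and FL/FL libraries. B cell markers summed to 1.75 to 14.9 CPM in Lepr-Cre, 0.860 to 4.97 CPM in KO/FL and 0.353 to 2.52 CPM in FL/FL CFU-E, so that the ranges overlapped. All 7 genes had counts in Lepr-Cre and in KO/FL libraries, and 2 in FL/FL libraries. Stroma and endothelium markers, 7 to 8 of 9 with counts, summed to 7.36 to 7.45 CPM in Lepr-Cre, 2.14 to 5.54 CPM in KO/FL and 1.88 to 5.93 CPM in FL/FL CFU-E, the Lepr-Cre libraries lying above the others. Among these, Cdh5 was at 0 in Lepr-Cre, Col1a1 and Kdr in KO/FL and Cdh5 and Kdr in FL/FL libraries. The part of these cells in the Bcl2l11 difference was not tested.

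Of the other BH3-only members, Bid, which caspase-8 cleaves to link death receptors to mitochondria, was higher in CFU-E of each of the 9 mice. It averaged 75.6 ± 13.7 CPM in CFU-E and 61.7 ± 6.84 CPM in PreCFU-E of Lepr-Cre mice, 70.4 ± 5.83 CPM in CFU-E and 52.1 ± 4.17 CPM in PreCFU-E of KO/FL mice, and 61.2 ± 3.49 CPM in CFU-E and 54.9 ± 6.89 CPM in PreCFU-E of FL/FL mice (SD, n = 3 each). No genotype passed on its own, with log2 fold changes of 0.29 ± 0.15, 0.44 ± 0.16 and 0.15 ± 0.16 (SE) in the order just given. The KO/FL value passed with the mouse as a block (adjusted p = 0.0273), against 0.0604 without it. Bcl2l13 overlaps Bid on the opposite strand.

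Bad, a BH3-only protein that survival kinases silence by phosphorylation, ranged over 15.5 to 32.8 CPM in CFU-E and 15.3 to 26.8 CPM in PreCFU-E and passed in no comparison. It was higher in CFU-E of 5 mice and lower in 4. Gpr137 overlaps Bad on the opposite strand. Bbc3, a p53 target that encodes PUMA, had only 4 to 59 reads a library. It lay at 0.472 to 4.44 CPM in CFU-E and 1.11 to 8.14 CPM in PreCFU-E and was lower in CFU-E of 8 of the 9 mice. Its log2 fold changes, -1.17 ± 0.73 in Lepr-Cre, -0.13 ± 0.71 in KO/FL and -1.03 ± 0.71 in FL/FL mice (SE), did not pass.

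Bax and Bak1 form the pores of the outer membrane. Bax ranged over 17.4 to 30.8 CPM in CFU-E and 12.5 to 30.1 CPM in PreCFU-E, and Bak1 over 67.0 to 114.3 CPM in CFU-E and 71.8 to 111.1 CPM in PreCFU-E. Neither passed in any comparison. In PreCFU-E, Bak1 averaged 97.96 ± 13.8 CPM in Lepr-Cre and 79.2 ± 7.78 CPM in FL/FL mice (SD, n = 3 each), a log2 difference of 0.31 ± 0.14 with an adjusted p of 0.206. Per length, Bax stood at 0.238 to 0.491 of the level of Bak1 in the 18 libraries. Ggnbp1 overlaps Bak1 on the opposite strand, whereas Gm45808 overlaps Bax on the same strand. The level of Bax and its ratio to Bak1 may be affected by reads shared with Gm45808, which was not tested.

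Bnip3l, the mitophagy receptor NIX, averaged 74.5 ± 8.85 CPM in Lepr-Cre, 86.5 ± 13.5 CPM in KO/FL and 87.7 ± 4.62 CPM in FL/FL CFU-E (SD, n = 3 each). In PreCFU-E it averaged 69.8 ± 3.19 CPM in Lepr-Cre, 76.1 ± 13.5 CPM in KO/FL and 79.4 ± 19.1 CPM in FL/FL mice. It passed in no comparison, and the log2 fold change of CFU-E against PreCFU-E was 0.09 ± 0.16, 0.18 ± 0.16 and 0.14 ± 0.16 (SE) in Lepr-Cre, KO/FL and FL/FL mice. The groups overlapped in each genotype. Reads could also be shared with a pseudogene copy, Bnip3l-ps.

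**Figure D2:**
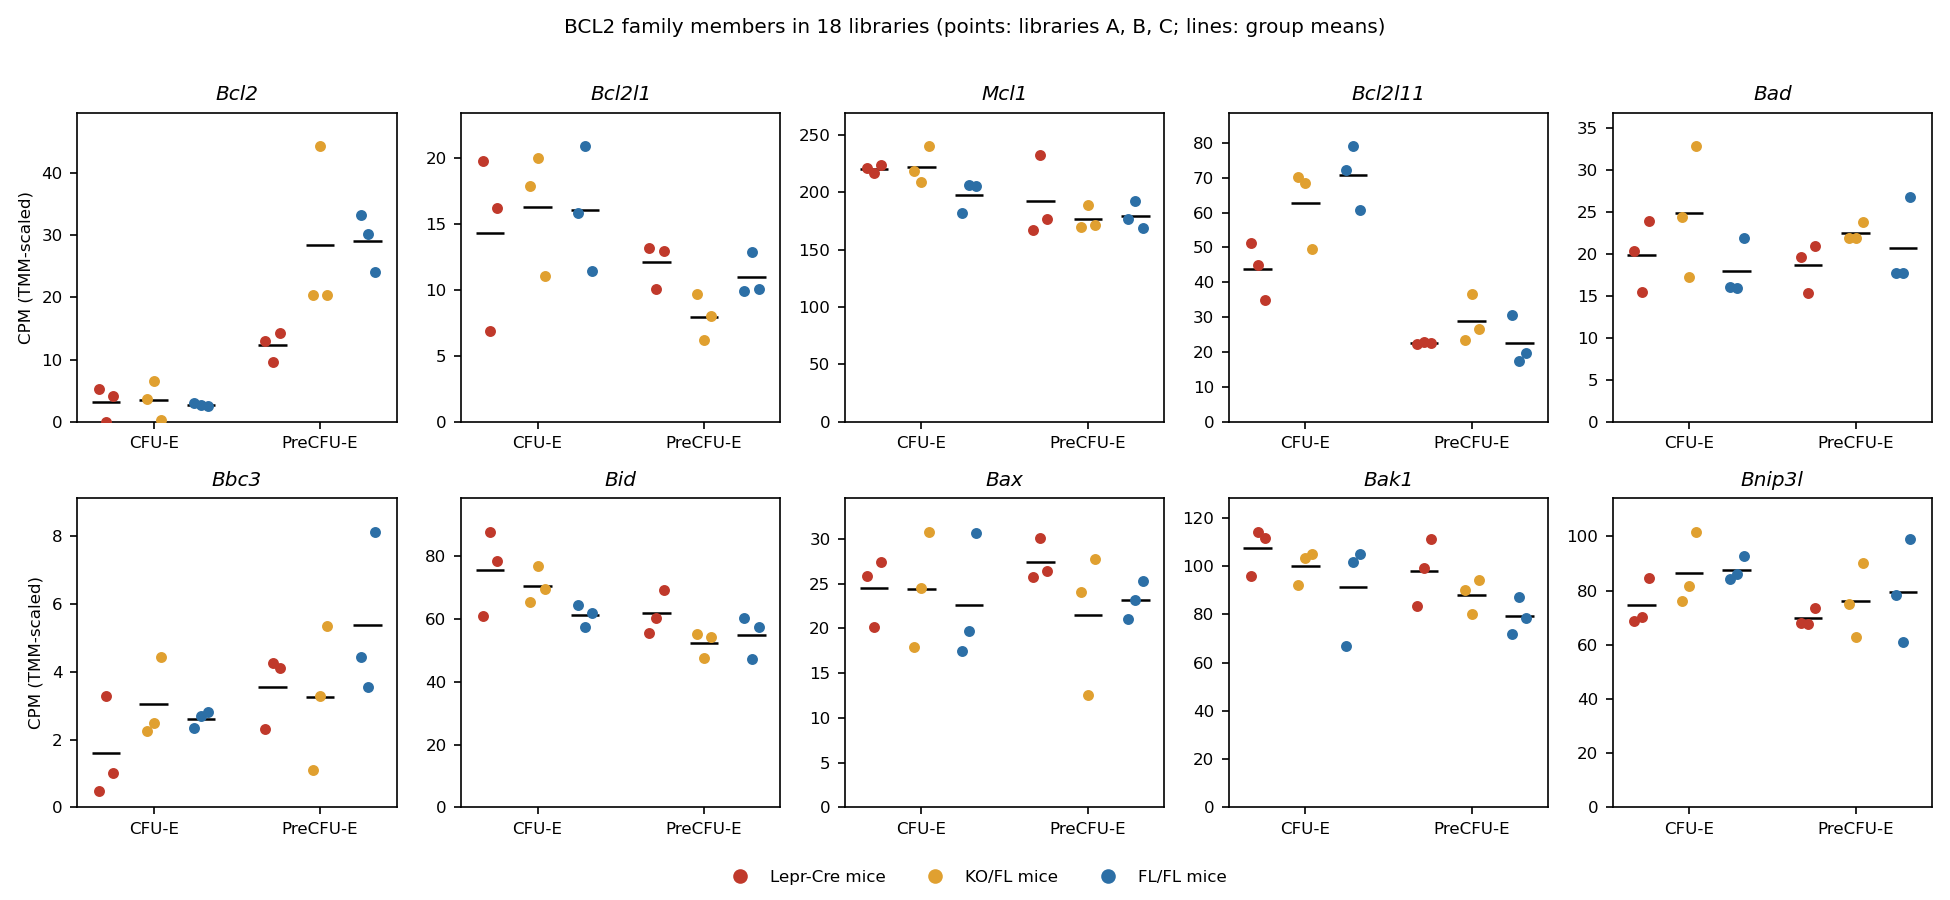
CPM of the 10 members, 1 panel each with its own axis from 0, in CFU-E (left) and PreCFU-E (right) of Lepr-Cre, KO/FL and FL/FL mice. Points are libraries A, B and C and lines are group means. Bcl2 lies at 6.55 CPM or less in CFU-E, and Bcl2l11 at 34.9 CPM or more.

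Counted by comparison, 1 of the 10 members passed for Lepr-Cre against FL/FL PreCFU-E, Bcl2, which was lower, where 6.13% of 10309 tested genes passed and 3.24% were lower. The groups of 2 members, Bcl2 and Bax, did not overlap, where this held for 25.2% of all genes. With the replicate letter as a block, 1586 genes passed in place of 632 and the same 1 member. For Lepr-Cre against KO/FL PreCFU-E, Bcl2 was the only member to pass, where 2.18% of genes passed and 1.16% were lower (225 genes, and 840 with the block). The groups of 5 members were separate, where 18.6% of genes were: Bcl2, Bcl2l11 and Bad lay lower and Bcl2l1 and Bid higher in Lepr-Cre mice.

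In CFU-E, 1 member passed for Lepr-Cre against FL/FL mice, Bcl2l11, which was lower, where 4.83% of 10192 genes passed and 2.75% were lower (492 genes, and 933 with the block). The groups of 2 members, Bcl2l11 and Mcl1, were separate, where 22.2% of genes were. For Lepr-Cre against KO/FL CFU-E edgeR called 0 members, where 1.01% of genes passed (103, and 280 with the block). Bcl2l11 was the member with a p under 0.05 before adjustment, and DESeq2 and limma also called 0 members. KO/FL and FL/FL mice differed in 0 members and 0 genes by edgeR in each cell type, where 350 genes of PreCFU-E and 210 of CFU-E had an unadjusted p under 0.05, DESeq2 called 5 and 1 genes, none of them members, and the replicate letter as a block 9 and 0. For the difference of the Lepr-Cre against FL/FL contrast between the cell types edgeR called 0 members, where 0.354% of genes passed (38, and 198 with the mouse as a block). For the same difference against KO/FL mice it called 0 members and 0 genes, with 569 genes under an unadjusted p of 0.05, 23 called by DESeq2 and 61 with the block. DESeq2, limma and the block called no member in either.

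The median log2 fold change of the 10 members was 0.05 for Lepr-Cre against FL/FL PreCFU-E, 0.11 for Lepr-Cre against KO/FL PreCFU-E and -0.04 for KO/FL against FL/FL PreCFU-E. In CFU-E it was 0.14, -0.17 and 0.15 in the same order of comparisons. The median of all genes was 0.01 or less in size in each. In the plot of genotype differences, Bcl2 in PreCFU-E and Bcl2l11 in CFU-E carry the calls.

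**Figure D3:**
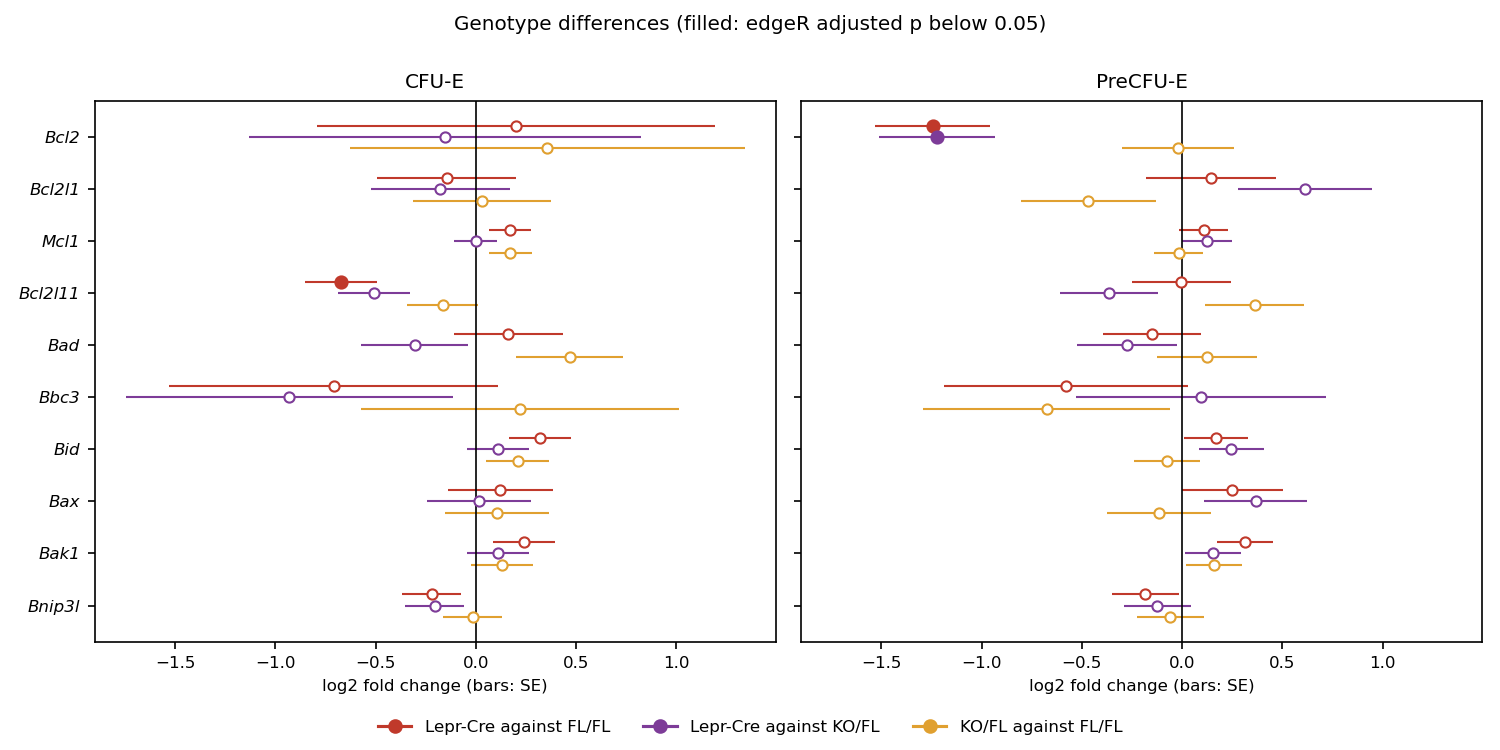
Log2 fold change of each member with its SE in CFU-E (left) and PreCFU-E (right), for Lepr-Cre against FL/FL, Lepr-Cre against KO/FL and KO/FL against FL/FL mice. The SE was calculated back from the F statistic of the edgeR test. Filled points passed an adjusted p of 0.05 with edgeR: Bcl2 in both Lepr-Cre comparisons of PreCFU-E and Bcl2l11 in Lepr-Cre against FL/FL CFU-E.

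Between the cell types, 1 member passed in Lepr-Cre mice (7.25% of 10732 genes), 4 in KO/FL mice (14.1%) and 2 in FL/FL mice (18.3%). The groups did not overlap for 2 members in Lepr-Cre mice, where this held for 22.3% of genes, for 5 in KO/FL mice (31.0%) and for 3 in FL/FL mice (35.0%). Averaged over the 3 genotypes, a contrast added after the data had been seen, 5 of the 10 members passed, where 34.8% of genes did. In that average Bcl2 fell by 2.77 (SE 0.46, edgeR adjusted p = 0.000285), and Bcl2l11 rose by 1.23 (SE 0.12, adjusted p = 2.84e-09) on the log2 scale. Bcl2l1 rose by 0.62 (SE 0.20, adjusted p = 0.0155), Bid by 0.29 (SE 0.09, adjusted p = 0.0109) and Mcl1 by 0.22 (SE 0.06, adjusted p = 0.00724). Without FL/FL CFU-E B, Bcl2l1 stood at an adjusted p of 0.0508. Bbc3 passed without Lepr-Cre CFU-E B (-1.14, adjusted p = 0.0291), and Bak1 passed without FL/FL CFU-E A (adjusted p = 0.0223).

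All 9 CFU-E libraries were on 1 side of all 9 PreCFU-E libraries for 1 member, Bcl2, where this held for 5.81% of genes. Bcl2l11 missed it because PreCFU-E of KO/FL B, at 36.8 CPM, exceeded CFU-E of Lepr-Cre C, at 34.9 CPM. Within mice, Bcl2 differed by -4.73 to -1.22 and Bcl2l11 by 0.62 to 2.14 in log2(CPM + 0.5), CFU-E minus PreCFU-E. The same difference for Bcl2l1, Mcl1, Bak1 and Bnip3l was above 0 in 8 of 9 mice and for Bax in 5. The 2 libraries of a mouse come from 1 animal, and the 9 values share their genotype in sets of 3.

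**Figure D4:**
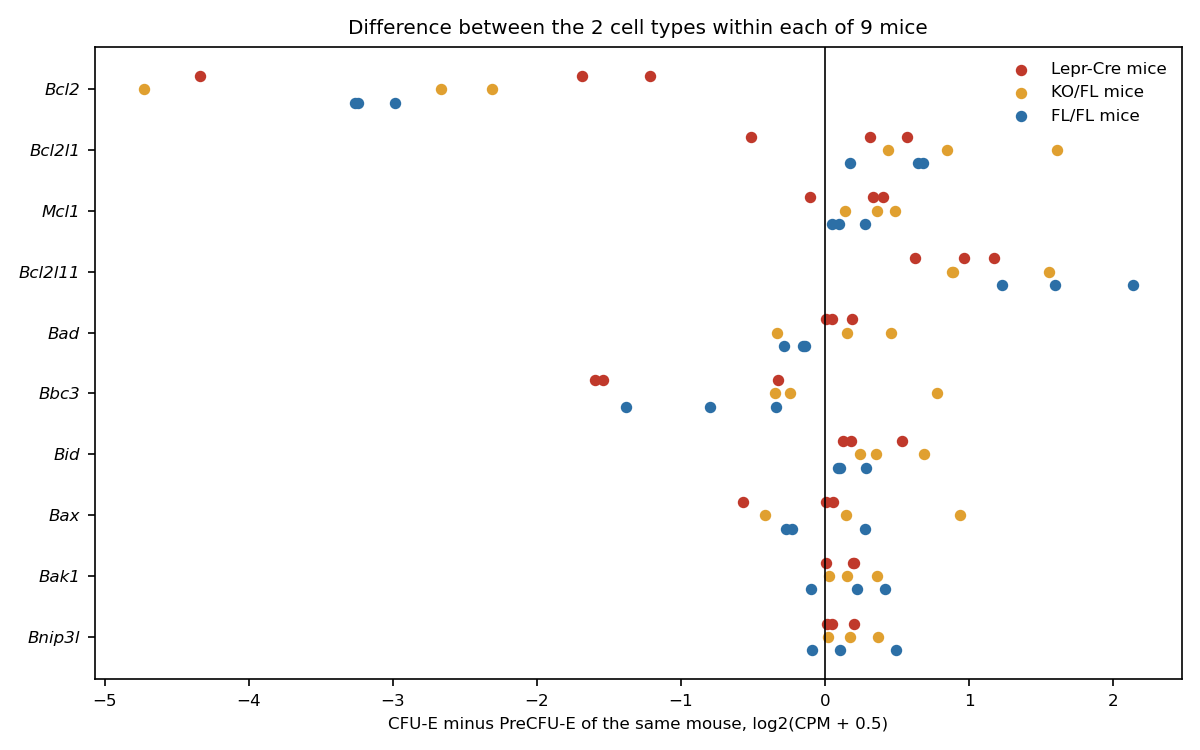
Difference between CFU-E and PreCFU-E of the same mouse in log2(CPM + 0.5) for each member, with 1 point a mouse, for Lepr-Cre, KO/FL and FL/FL mice. All 9 points lie below 0 for Bcl2 and above 0 for Bcl2l11 and Bid.

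The balance of BIM message to pro-survival message differed between the cell types as a description. Per length, Bcl2l11 stood at 0.0664 to 0.0986 of Mcl1 in CFU-E of Lepr-Cre mice, 0.0877 to 0.140 in CFU-E of KO/FL mice and 0.126 to 0.169 in CFU-E of FL/FL mice. In PreCFU-E it stood at 0.0418 to 0.0571 in Lepr-Cre, 0.0588 to 0.0828 in KO/FL and 0.0388 to 0.0736 in FL/FL mice. The 3 Lepr-Cre CFU-E libraries lay below the FL/FL CFU-E libraries and above the PreCFU-E libraries of their own mice. They overlapped the CFU-E libraries of KO/FL mice and the PreCFU-E libraries of KO/FL and of FL/FL mice.

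**Figure D5:**
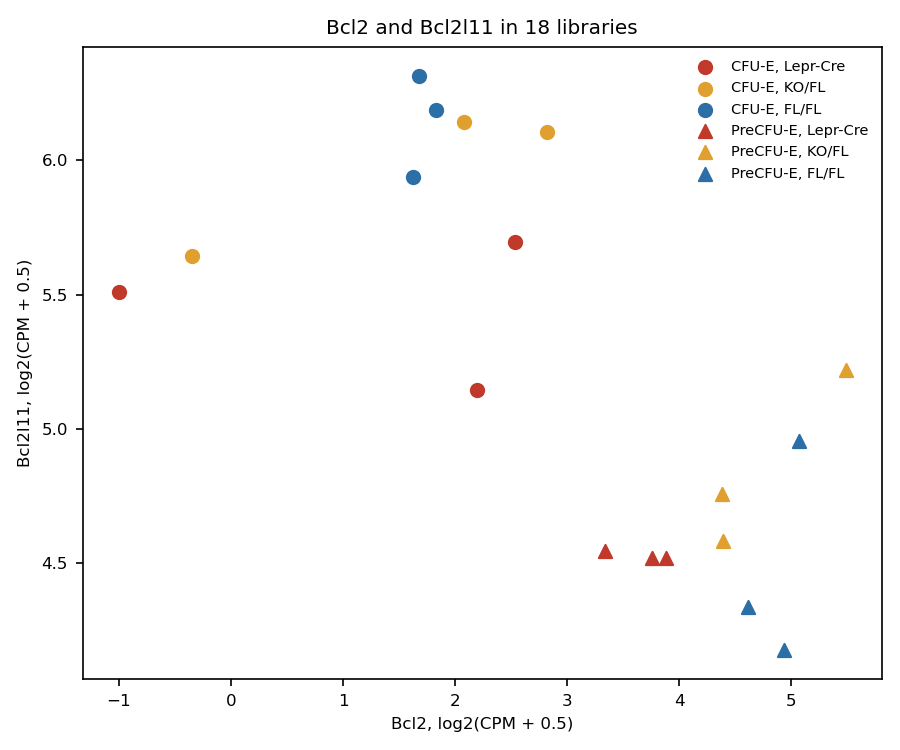
Bcl2 against Bcl2l11 in log2(CPM + 0.5), with 1 point for each of 18 libraries, circles for CFU-E and triangles for PreCFU-E, coloured by Lepr-Cre, KO/FL and FL/FL mice. CFU-E lie at high Bcl2l11 and low Bcl2 and PreCFU-E lie at low Bcl2l11 and high Bcl2, with the 3 Lepr-Cre PreCFU-E libraries lowest in Bcl2 among PreCFU-E.

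The genes most like a member over the 18 libraries, among 8865 genes with a mean of at least 5 CPM, were ranked by the Pearson correlation of log2 CPM. The libraries share cell type and genotype, so the values describe shared group differences. For Bcl2 these were Ttc7b (r = 0.963), Madd (0.938) and Slc45a3 (0.937). For Bcl2l11 they were Acsl6 (r = 0.934), Trim2 (0.926) and Fhdc1 (0.924), and for Bcl2l1 they were Rprd1b (r = 0.820), Tubgcp4 (0.812) and Nags (0.789). Acsl6 averaged 43.4 CPM in Lepr-Cre, 64.4 CPM in KO/FL and 65.9 CPM in FL/FL CFU-E, and 23.9 CPM in Lepr-Cre, 21.5 CPM in KO/FL and 18.8 CPM in FL/FL PreCFU-E.

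Of 17 other BCL2 family genes, 8 had enough reads to be tested on 18 libraries. Between the cell types, 0 of the 8 passed in Lepr-Cre, 2 in KO/FL and 1 in FL/FL mice. Over all tested genes 7.25%, 14.1% and 18.3% passed in the same order. Bcl2l13, a mitochondrial relative, ranged over 188 to 311 CPM, and Bcl2l2, Bcl2a1a, Bcl2a1b, Bcl2a1d and Bcl2l10 were listed at 0 counts. Whether a listed 0 reflects absent message or reads left uncounted, such as reads shared between similar genes, was not tested. Bcl2l15, a little-studied relative, had 88 reads in KO/FL CFU-E and 0 in KO/FL PreCFU-E, and 67 reads in FL/FL CFU-E and 7 in FL/FL PreCFU-E. It passed between the cell types in both genotypes (edgeR adjusted p = 0.00343 and 0.0442). In Lepr-Cre mice it had 27 reads in CFU-E and 19 in PreCFU-E and did not pass. Bcl2l15 met the read filter only through CFU-E libraries, where it was high, so these calls lend no independent support to its direction. The KO/FL call held with each library left out, and the FL/FL call was lost without any 1 of the 6 FL/FL libraries but PreCFU-E A (0.0752 to 0.167). Bcl2l13 rose in KO/FL CFU-E by 0.40 ± 0.11 on the log2 scale (adjusted p = 0.0131), a call lost without KO/FL PreCFU-E B (0.123) or C (0.0521) and without KO/FL CFU-E C (0.118). Bnip2 rose in PreCFU-E of Lepr-Cre mice by 0.45 ± 0.13 against FL/FL mice (edgeR adjusted p = 0.0344). This was the 1 call of 5 tested there, where 6.13% of all tested genes passed. It was lost without any 1 of the 6 libraries but FL/FL B (0.0765 to 0.170), with all 18 libraries in 1 fit (0.103) and with limma on RPKM.

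Of 20 genes of the apoptosome, caspases and their inhibitors, all tested, 1 passed in Lepr-Cre, 1 in KO/FL and 3 in FL/FL mice between the cell types. Over all tested genes 7.25%, 14.1% and 18.3% passed in the same order. Birc5, which encodes survivin, an inhibitor-family protein that also acts in mitosis, was higher in CFU-E than PreCFU-E by 0.66 ± 0.13 in Lepr-Cre, 0.62 ± 0.13 in KO/FL and 0.58 ± 0.13 in FL/FL mice (SE, edgeR adjusted p = 0.00127, 0.00134 and 0.00190). These 3 calls held with each library left out and under each other setting run. In FL/FL mice Htra2, a protease released from mitochondria, was also higher (0.45 ± 0.14, adjusted p = 0.0173) and Casp8, the initiator caspase of death receptors, lower (-0.50 ± 0.16, adjusted p = 0.0275). Htra2 was lost without FL/FL PreCFU-E A (0.129) and FL/FL CFU-E B (0.0502) or C (0.184) and with limma on RPKM, and Casp8 without any 1 of the 6 but FL/FL CFU-E A (0.0529 to 0.116). In PreCFU-E of Lepr-Cre against FL/FL mice 1 of the 20 passed, where 6.13% of all tested genes did. This was Aifm1, which encodes apoptosis-inducing factor and was higher (0.41 ± 0.11, edgeR adjusted p = 0.0337). That call was lost without any 1 of the 6 libraries but FL/FL C (0.0549 to 0.202) and with limma on RPKM.

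Genes of the death receptor list that passed between the cell types were lower in CFU-E. Besides receptors, the list holds the ligand genes Fasl and Tnfsf10, the inhibitor gene Cflar, and Fadd, Tradd and Ripk1. Of 10 genes, 8 were tested, and those that passed were 1 in Lepr-Cre, 2 in KO/FL and 3 in FL/FL mice. Over all tested genes 7.25%, 14.1% and 18.3% passed in the same order, and a difference from these shares was not tested. Tnfrsf1a, which encodes a TNF receptor, averaged 2.23 ± 0.554 CPM in CFU-E and 13.7 ± 5.33 CPM in PreCFU-E of KO/FL mice, and 2.66 ± 0.787 CPM in CFU-E and 13.3 ± 4.74 CPM in PreCFU-E of FL/FL mice (SD, n = 3 each, edgeR adjusted p = 0.000197 and 0.000611). Both Tnfrsf1a calls held with each library left out and under each other setting run. In Lepr-Cre mice it averaged 2.88 ± 1.52 CPM in CFU-E and 7.33 ± 0.651 CPM in PreCFU-E and did not pass (adjusted p = 0.0828).

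The other calls of the death receptor list were lost on leaving out any 1 of 3 or 4 libraries. Tnfrsf1b, another TNF receptor gene, was lower in KO/FL CFU-E (-1.67 ± 0.51, edgeR adjusted p = 0.0241), a call lost without KO/FL PreCFU-E B (0.158) and KO/FL CFU-E A (0.105) or C (0.130). Tnfsf10, the gene of the death ligand TRAIL, was lower in Lepr-Cre CFU-E (-1.63 ± 0.49, adjusted p = 0.0395), a call lost without Lepr-Cre PreCFU-E A (0.0695) or B (0.349) and Lepr-Cre CFU-E B (0.165) or C (0.130), with limma on RPKM and with only the 6 Lepr-Cre libraries (0.0967). In FL/FL CFU-E it was lower by -1.51 ± 0.47 (adjusted p = 0.0232), a call lost without FL/FL PreCFU-E A (0.0692) or C (0.0616) and FL/FL CFU-E A (0.104). Cflar, an inhibitor of caspase-8, was lower in FL/FL CFU-E (-0.73 ± 0.23, adjusted p = 0.0224), a call lost without FL/FL PreCFU-E B (0.0509) or C (0.0556) and FL/FL CFU-E B (0.0899) or C (0.0519).

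The median log2 fold change of the 8 tested genes of the death receptor list was -0.81 in Lepr-Cre, -0.41 in KO/FL and -0.96 in FL/FL mice. For all genes it was 0.01 or less in size, to 2 decimals. Stroma and endothelium markers, led by Pecam1 and Col1a2, were also lower in CFU-E. They summed to 1.88 to 7.45 CPM in CFU-E and 20.4 to 36.7 CPM in PreCFU-E, with 5 to 8 of 9 genes having counts in a group and Cdh5 at 0 in 5 of the 6 groups, and their part was not tested.

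Of 16 mitophagy and autophagy genes, 15 were tested, and 2 were lower in PreCFU-E of Lepr-Cre against FL/FL mice. In that comparison 3.24% of all tested genes were called lower. Pink1, which encodes the kinase that marks damaged mitochondria, averaged 26.4 ± 4.17 CPM in Lepr-Cre and 52.3 ± 7.69 CPM in FL/FL PreCFU-E (SD, n = 3 each, log2 fold change -0.98 ± 0.22, edgeR adjusted p = 0.00716). The groups did not overlap, and the call held with each library left out but not with limma on RPKM. Park2, which encodes the ligase Parkin that PINK1 recruits, averaged 8.94 ± 2.43 CPM in Lepr-Cre, 22.98 ± 4.30 CPM in KO/FL and 19.1 ± 8.26 CPM in FL/FL PreCFU-E. It was lower in Lepr-Cre mice against KO/FL (-1.36 ± 0.33, adjusted p = 0.0255) and FL/FL mice (-1.10 ± 0.32, adjusted p = 0.0438). Against KO/FL mice the Park2 call was lost without Lepr-Cre A (0.110) or B (0.136) and without KO/FL A (0.0646) or C (0.0969). Against FL/FL mice it was lost without Lepr-Cre A (0.122) or B (0.164) and without FL/FL A (0.248) or C (0.122), and both were lost with all 18 libraries in 1 fit and with limma on RPKM.

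Between the cell types, 1 mitophagy gene passed in KO/FL and FL/FL mice, where 14.1% and 18.3% of all tested genes did. This was Phb2, which encodes an inner membrane receptor of mitophagy. It was higher in CFU-E of KO/FL (0.35 ± 0.11, edgeR adjusted p = 0.0317) and FL/FL mice (0.31 ± 0.11, adjusted p = 0.0468). The KO/FL call was lost without any 1 of the 6 libraries but CFU-E B (0.0528 to 0.193) and with limma on RPKM, and the FL/FL call without FL/FL PreCFU-E A (0.250) or B (0.109), without FL/FL CFU-E B (0.113) or C (0.342), with DESeq2 or its size factors, with limma on RPKM and with only the 6 FL/FL libraries (0.104).

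Of 19 regulators of BCL2 proteins and their genes, 18 were tested, and Pim1 was the gene called in all 4 comparisons of Lepr-Cre with another genotype. In PreCFU-E, 2 of the 18 passed against FL/FL mice (6.13% of all tested genes) and 1 against KO/FL mice (2.18%). In CFU-E, 1 passed against FL/FL mice (4.83%) and 1 against KO/FL mice (1.01%). Pim1 encodes a kinase that phosphorylates BAD and is induced through STAT5. It averaged 72.4 ± 7.55 CPM in Lepr-Cre, 43.02 ± 7.68 CPM in KO/FL and 23.8 ± 6.65 CPM in FL/FL PreCFU-E, and 69.7 ± 10.5 CPM in Lepr-Cre, 34.4 ± 4.07 CPM in KO/FL and 24.5 ± 6.32 CPM in FL/FL CFU-E (SD, n = 3 each). The Lepr-Cre libraries lay above those of both other genotypes in each cell type. Against FL/FL mice the log2 fold change was 1.60 ± 0.21 in PreCFU-E and 1.52 ± 0.20 in CFU-E (edgeR adjusted p = 2.05e-05 and 8.61e-05), and both calls held with each library left out and under each other setting run. Against KO/FL mice it was 0.76 ± 0.20 in PreCFU-E and 1.03 ± 0.20 in CFU-E (adjusted p = 0.04997 and 0.0124). The KO/FL call in PreCFU-E lay at the threshold and was lost without any 1 of the 6 libraries (0.0716 to 0.227), with DESeq2 size factors, with all 18 libraries in 1 fit (0.0533) and with limma on RPKM. That in CFU-E was lost without Lepr-Cre A (0.0665) or KO/FL B (0.112) and with limma on RPKM.

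Stat5b, a transcription factor gene downstream of the erythropoietin receptor, was lower in PreCFU-E of Lepr-Cre against FL/FL mice (-0.40 ± 0.11, edgeR adjusted p = 0.0266), a call lost without Lepr-Cre A (0.0620) or C (0.149) and FL/FL A (0.0976) or B (0.0808) and with limma on RPKM. It was also lower in CFU-E against PreCFU-E of FL/FL mice (-0.33 ± 0.11, adjusted p = 0.0372), a call lost without any 1 of the 6 libraries but PreCFU-E C (0.0565 to 0.124) and with limma on log2(RPKM + 0.1). Fbxw7, a ubiquitin ligase gene whose product turns over MCL1, was higher in CFU-E of FL/FL mice (0.45 ± 0.13, edgeR adjusted p = 0.0171). That call was lost without FL/FL PreCFU-E C (0.127) or FL/FL CFU-E A (0.0849). Stat5b and Fbxw7 were the 2 of 18 regulators called between the cell types of FL/FL mice, where 18.3% of all tested genes passed. In Lepr-Cre and KO/FL mice 0 of the 18 passed, where 7.25% and 14.1% of all tested genes did.

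Of 11 p53 pathway genes, all tested, 1 passed between the cell types in Lepr-Cre, 1 in KO/FL and 2 in FL/FL mice. Over all tested genes 7.25%, 14.1% and 18.3% passed in the same order. No p53 pathway gene passed between genotypes. Sesn2, a stress-induced p53 target, was higher in FL/FL CFU-E (1.33 ± 0.31, edgeR adjusted p = 0.00230), a call that held with each library left out and under each other setting run. Zmat3, another p53 target, was lower in CFU-E of KO/FL (-0.87 ± 0.26, adjusted p = 0.0203) and FL/FL mice (-0.94 ± 0.26, adjusted p = 0.00887). The Zmat3 calls were lost without KO/FL PreCFU-E A (0.201) or KO/FL CFU-E B (0.0911) and with limma on RPKM in KO/FL mice, and without FL/FL PreCFU-E A (0.0862) or FL/FL CFU-E B (0.0683) in FL/FL mice. Trp53 itself was lower in Lepr-Cre CFU-E (-0.37 ± 0.11, adjusted p = 0.0349), a call lost without Lepr-Cre PreCFU-E A (0.1001), B (0.0883) or C (0.0752) and Lepr-Cre CFU-E C (0.219), with limma on RPKM and with only the 6 Lepr-Cre libraries (0.0594).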

How the data were processed

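Members and lists were chosen with earlier results of these data known. Per the submitters' processing notes, STAR 2.5.2b, mm10 and HTSeq were used for alignment and counting. The deposited count table holds unnormalised read counts per gene, of which 5325 genes had none. The authors also deposited RPKM values. Their divisor per gene was unrelated to its own length (Spearman 0.123 over 15424 genes), so RPKM served within a gene and levels between genes were set per exon length of GENCODE M21 (GRCm38). The labels name nuclear extraction but describe sorted cells, and whole cells were assumed. The kit is stranded.

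Counts were fitted with edgeR 4.0.16 in R 4.3.3 (TMM, filterByExpr with minimum count 10 and minimum total 15, robust quasi-likelihood test) and Benjamini-Hochberg adjusted over all tested genes at 0.05. Tests were two-sided. Genotypes were compared on the 9 libraries of a cell type, and cell types and interactions on all 18 libraries, without a block. The code was tested on simulated data. Alternatives were DESeq2 1.42.0 and its size factors, no filter, limma 3.58.1 on log2(RPKM + 1) and log2(RPKM + 0.1), replicate blocks, other libraries in the fit and each library left out. Mice gave both cell types and pair them by design (r = 0.111 to 0.197 for deviations from group means). Different mice with the same letter had similar values within a cell type, at 0.0877 to 0.189. These r therefore do not separate the mouse from the letter. Replicate letters passed 0.1 in all 3 pairs for each pair of genotypes except Lepr-Cre and FL/FL CFU-E (0.0877 for C). Between replicates, chi-square over degrees of freedom was 7.75 to 18.9. Counting floors cover counting error only. The named genes were all 10 members, up to 4 called genes of each list and comparison by smallest p, Kit, Kitl and the 3 genes most correlated with Bcl2, Bcl2l1 and Bcl2l11. Of the averaged contrast, list genes are not named.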

Additional observations from a re-analysis of the deposited data

How the results depend on the processing

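No called result reversed under any setting. The count of members called was 0 with limma on log2(RPKM + 1), 0 with limma on log2(RPKM + 0.1) and 0 with all 18 libraries in 1 fit for Lepr-Cre against FL/FL PreCFU-E and for Lepr-Cre against KO/FL PreCFU-E, against 1 in each. It was 0 with both limma settings for Lepr-Cre against FL/FL CFU-E, against 1. Between the cell types it was 2 with limma on log2(RPKM + 1) in Lepr-Cre mice, with Bcl2 added, against 1, and 2 with both limma settings and with only the 6 KO/FL libraries, against 4 in KO/FL mice. The cause was not tested. Leaving out 1 library gave 0 to 1 calls in each of these 3 genotype comparisons, 1 to 3 between the cell types of KO/FL mice and 4 to 6 in the contrast averaged over genotypes. With the replicate block (letter) the count stayed at 1 for Lepr-Cre against FL/FL and against KO/FL PreCFU-E and against FL/FL CFU-E, and at 0 in the other genotype comparisons. With the replicate block (mouse) it was 1 in Lepr-Cre, 5 in KO/FL and 2 in FL/FL mice, 5 in the average and 0 for both interactions. Bid in KO/FL mice was the call that the block changed. Of 120 pairs of member and comparison, 101 were called under no setting, and 45 of those changed sign under some setting, with log2 fold changes of at most 0.36 in size. Of 39 calls among Kit and the list genes, 16 held with each library left out, 22 under every other setting, 14 under both and 0 reversed. With 3 mice a group, Bcl2 in CFU-E and Bbc3, at few reads, limit what could be detected.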
